A study of Rattus norvegicus with 24 samples.

Results

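The mRNAs of 10 cardiac lineage transcription factors were followed in cultured neonatal rat ventricular myocytes, heart muscle cells isolated from Sprague-Dawley rats soon after birth. The 10 genes are a list given by name, drawn up with earlier results of these data known: Gata4, Gata6, Nkx2-5, Tbx5, Tbx20, Myocd, Prox1, Hand2, Mef2a and Mef2c. All 10 were among the 21767 gene symbols of the count table and among the 14303 genes with enough counts to be tested. The study crossed doxorubicin, an anthracycline cancer drug that injures heart muscle, with mimics of 2 microRNAs, to look for protection by the pair. PolyA RNA of 24 libraries was sequenced, 3 for each of 8 groups. Without doxorubicin and with doxorubicin, the cells carried a negative control mimic, a miR-222 mimic, a miR-455 mimic, or both. Mimics are synthetic double-stranded RNAs that act as the mature microRNA. All 8 groups were transfected with mimic at 5 nM each by Lipofectamine RNAiMax, so no group is untransfected. Doxorubicin or control treatment started 48 h later and lasted 24 h. The drug was used at 4 uM by the sample protocol, while the series text gives the same figure in mM. The labels number the replicates but do not say which animals or cultures they came from, so p-values here measure only the spread between these libraries, which may be technical.

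These factors switch on the genes of heart muscle. GATA4, GATA6, NKX2-5, TBX5, TBX20 and HAND2 bind DNA and work in shared complexes at cardiac promoters and enhancers, myocardin (Myocd) is a coactivator that acts through serum response factor, and MEF2 proteins drive muscle genes in answer to calcium and stress signals. PROX1 is a homeodomain factor needed for sarcomere assembly in the embryonic heart, and it is also the defining factor of lymphatic endothelium.

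The mature rat microRNAs that the mimics are named for are shown because every comparison between mimics turns on them. The sequences are RefSeq's on build GRCr8, with the seed (bases 2 to 8) in capitals. The first lies at chrX:6022682-6022702 on the plus strand and the second at chr5:81704881-81704902 on the plus strand. The seeds of the pair differ.
rno-miR-222-3p: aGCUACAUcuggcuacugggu
rno-miR-455-3p: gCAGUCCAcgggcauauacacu

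Library totals ran from 17311949 to 25750309 counts. A library held 11469 to 13524 genes with 10 counts or more. Transcripts of the 13 mitochondrially encoded genes took 5.54% to 38.2% of the counts. In 4 libraries the number of detected genes was lowest: with doxorubicin, replicate 1 of the control mimic and replicate 2 of both mimics, and without it, replicate 1 of the control mimic and replicate 3 of both. Within groups, some pairs of libraries were much closer than others: 6 pairs had a chi-square per degree of freedom of 5.79 to 9.79 between their counts, against 51.4 to 575 for the remaining pairs. The close pairs were replicates 1 and 2 of miR-222 without doxorubicin, 1 and 3 of miR-455 without doxorubicin, 1 and 2 of both mimics without doxorubicin, and all 3 of miR-455 with doxorubicin. These pairs still differed by more than counting noise and were kept as separate libraries.

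The cultures held heart muscle cells with other cells. Of 10 cardiomyocyte markers 9 were in the table, and Tnnt2 (cardiac troponin T) ran from 2609 to 10945 CPM (the usual depth-scaled count unit, with library sizes adjusted by the TMM method). Myh6 (alpha myosin heavy chain) ran from 5301 to 20475 CPM. The fibroblast marker Col1a1 (collagen I) was also high, at 9131 to 37423 CPM. Other lists were mixed. The defining endothelial genes Cdh5 and Emcn reached at most 0.773 and 0.357 CPM, but Kdr ran up to 45.8 CPM, Tek from 3.90 to 25.7 CPM and Nfatc1 from 4.54 to 80.9 CPM. The leukocyte gene Ptprc reached at most 0.754 CPM, and Cd14 of the same list 14.2 CPM. Of the lymphatic genes, Ccl21 and Mmrn1 were at 0 in the median library, with maxima of 0.0732 and 0.182 CPM. Pdpn (40.4 to 111 CPM), Flt4 (8.32 to 86.1 CPM) and Reln (3.96 to 70.0 CPM) were present in every library. Ttn, Pecam1 and Col1a2 were not analysed here.

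Doxorubicin lowered most of the 10 factors. With the control mimic, 7 of 10 passed the test as lower and 0 as higher, where 12.3% of all genes tested were called lower. The median of the 10 was -1.88 on the log2 scale, against 0.02 over all genes tested. With the miR-222 mimic 8 were lower (6.87% of all genes), with the miR-455 mimic 6 (9.11%), and with both mimics 7 (7.24%). The medians were -1.97, -2.20 and -1.71. In the mean effect over the 4 mimic conditions 9 of 10 were lower, against 24.3% of all genes, and Mef2a was the exception. Nkx2-5, Tbx5, Tbx20, Myocd, Prox1 and Mef2c were called lower in all 4 conditions, Gata6 and Hand2 in 2, and Gata4 and Mef2a in 0. These single-condition calls depended on the fit. Fitting only the 2 groups compared left 0 of 10 with both mimics and 3 with the control mimic. Calls fell among all genes too, where 5 and 586 were lower in those fits, against 1035 and 1765 in the main fit. With the control mimic, Nkx2-5, Tbx5, Hand2 and Mef2c were lost (edgeR adjusted p from 0.0560 to 0.0799). The same fit added Gata4 with miR-222 (edgeR adjusted p = 0.0245). With miR-455 it added Gata4, Gata6 and Hand2 (edgeR adjusted p = 0.00327, 0.00979 and 0.0291). Summing the close libraries left 0 of 10 with miR-455, where the drug group becomes 1 library (edgeR adjusted p from 0.0605 to 0.300 for the 6 lost). It also ended the calls of Mef2c in the other 3 conditions, of Gata6 with miR-222 and both, and of Hand2 with miR-222. The estimates of the lost calls kept their sign. A gene was called at an adjusted p under 0.05 in edgeR's quasi-likelihood test with Benjamini-Hochberg adjustment over all genes tested. In bulk RNA, fewer cells of a type and less RNA per cell cannot be told apart.

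Among 9 cardiomyocyte markers tested with the control mimic, 4 were higher with doxorubicin and 0 lower, with a median of 0.84 on the log2 scale (15.2% of all genes higher). Estimates were above 0 for 6 of the 9, and Ryr2 (-1.07 ± 0.47), Actn2 (-0.58 ± 0.37) and Myh6 (-0.09 ± 0.36) had lower ones that did not pass. Calls were 3 higher and 0 lower with miR-222 and with both mimics (7.76% and 7.85% of all genes higher). With miR-455 they were 2 higher and 2 lower (9.02% and 9.11% of all genes), the latter being Ryr2 (-2.14 ± 0.48) and Actn2 (-1.39 ± 0.38). In the mean effect they were 4 and 2. In the control mimic groups the summed level of the list was 14590 to 19877 CPM without doxorubicin and 26002 to 28825 CPM with it. With miR-222 the sums overlapped, at 18112 to 20753 CPM without and 19191 to 28216 CPM with the drug. Those with both mimics overlapped too (19109 to 20731 and 19444 to 41843 CPM). Those with miR-455 did not (23744 to 29765 and 30797 to 31405 CPM). With the control mimic the 9 fibroblast markers summed to 22569 to 32514 CPM without and 28273 to 59660 CPM with the drug. The calls among these 9 were 2 higher and 1 lower. The part of these cell types in the results was not tested.

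**Figure D1:**
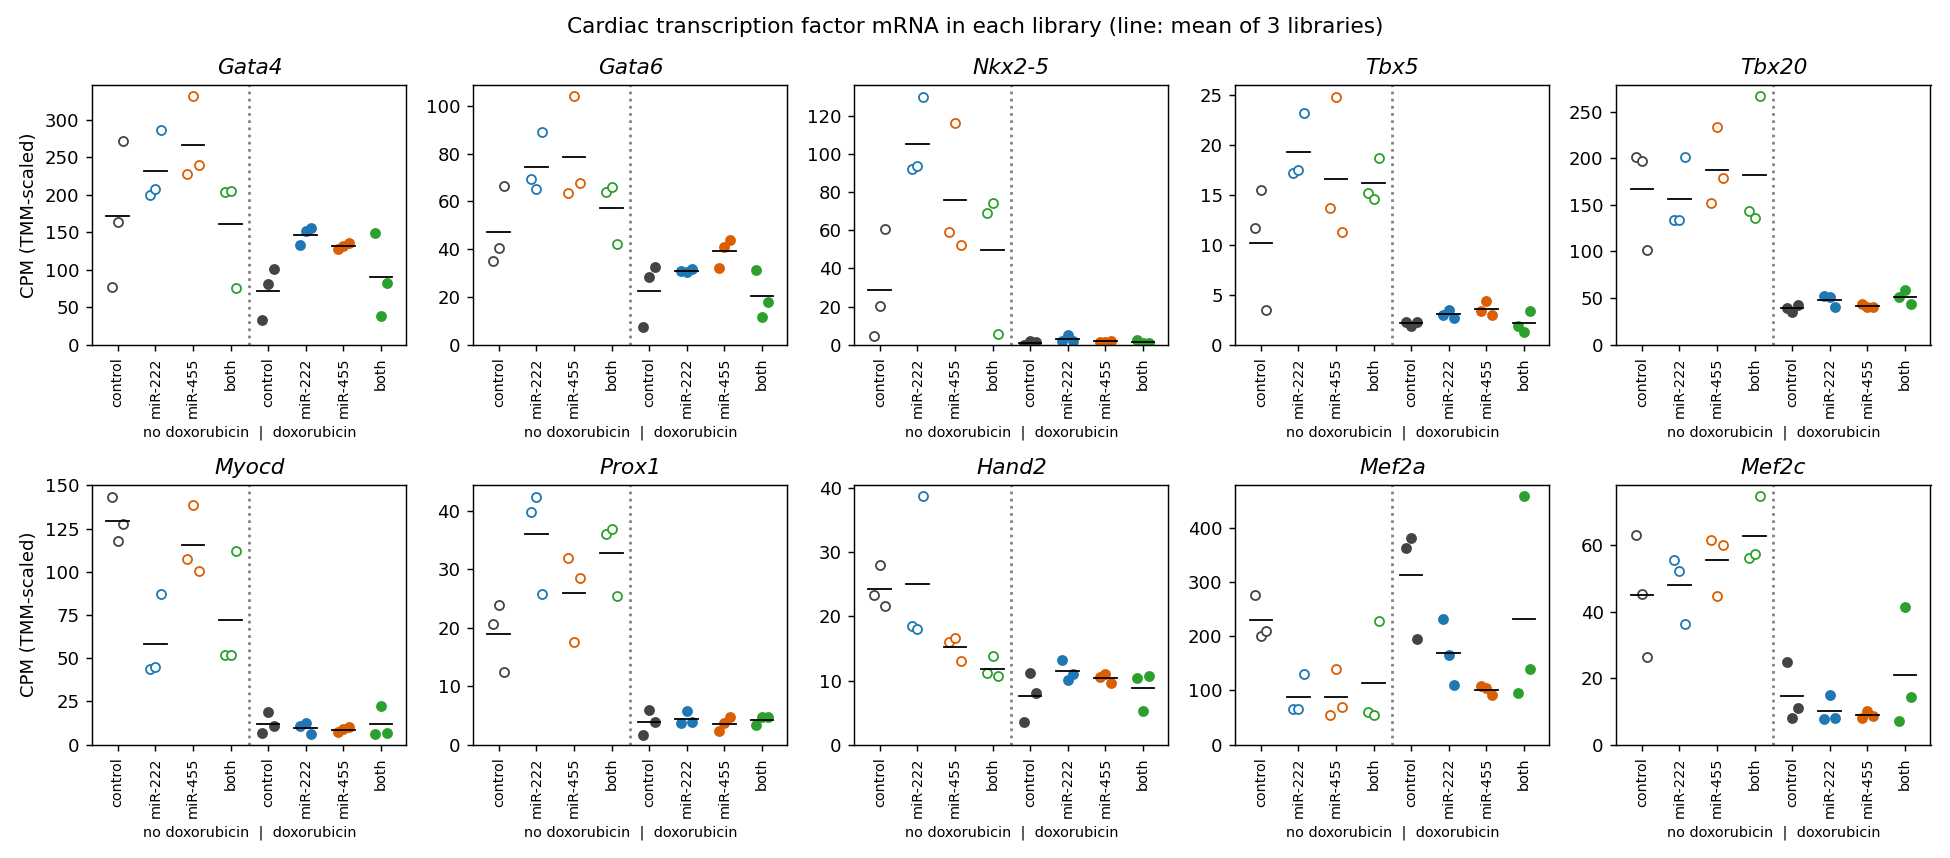
Level of each factor in each of the 24 libraries (vertical axis, CPM after TMM scaling; each panel has its own axis from 0), by mimic without (open) and with doxorubicin (filled). Horizontal lines are means of 3 libraries. Tbx20, Myocd and Prox1 show no overlap between the 12 libraries without the drug and the 12 with it, and Mef2a overlaps throughout.

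The homeodomain factor Nkx2-5, among the earliest markers of the heart field, fell most. Without doxorubicin its levels were 4.86, 20.1 and 60.5 CPM with the control mimic, and 92.2, 93.8 and 129.7 CPM with miR-222. They were 59.3, 116.2 and 52.1 CPM with miR-455, and 68.9, 74.2 and 5.63 CPM with both mimics. With doxorubicin no library passed 5.14 CPM. The levels there were 0, 2.01 and 1.37 CPM with the control mimic, 2.03, 5.14 and 2.23 CPM with miR-222, 1.54, 1.65 and 2.23 CPM with miR-455, and 2.69, 0.684 and 0.762 CPM with both. The library at 0 counts allows up to 3 counts, or 0.303 CPM. Within each mimic condition the groups did not overlap, but the lowest library without the drug (4.86 CPM) lay under the highest with it (5.14 CPM). The log2 fold change was -4.56 ± 1.00 (SE) with the control mimic (23.5-fold lower, edgeR adjusted p = 0.00203), -5.08 (miR-222), -5.39 (miR-455) and -5.13 (both). Over the 4 conditions the mean effect was -5.04 ± 0.50, or 32.8-fold lower. The control group without the drug spread widely, with 28.5 ± 28.7 CPM (SD, n = 3).

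The promoters of Nkx2-5, which fell most, and Mef2a, the one factor not lower, are shown for comparison. Each window runs from 250 bases before to 50 bases after the gene's start, in RefSeq's GRCr8 entry, and such entries were matched for 6 of the 10 genes. The first lies at chr10:16848350-16848649 on the plus strand and the second at chr1:130392113-130392412 on the minus strand. Capitals mark CANNTG (the E-box, bound by HAND2 and other helix-loop-helix factors) in the first and the MEF2 site in the second.
Nkx2-5: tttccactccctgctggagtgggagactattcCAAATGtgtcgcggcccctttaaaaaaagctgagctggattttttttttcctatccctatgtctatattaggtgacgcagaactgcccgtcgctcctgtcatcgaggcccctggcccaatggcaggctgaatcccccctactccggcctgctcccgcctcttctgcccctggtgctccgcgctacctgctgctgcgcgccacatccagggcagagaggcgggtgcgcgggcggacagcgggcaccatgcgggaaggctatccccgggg
Mef2a: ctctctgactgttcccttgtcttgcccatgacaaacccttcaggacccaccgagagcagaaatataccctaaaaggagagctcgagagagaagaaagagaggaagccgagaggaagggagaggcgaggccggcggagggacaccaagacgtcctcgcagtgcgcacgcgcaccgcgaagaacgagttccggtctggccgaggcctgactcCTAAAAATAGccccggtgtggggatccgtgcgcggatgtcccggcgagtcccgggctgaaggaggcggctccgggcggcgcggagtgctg
On both strands, the MEF2 site was in 1 of the 6 windows, Mef2a's, 40 bases before the start, and in 3.29% of the 33469 promoter windows of the same length. CANNTG was in the windows of Nkx2-5, Tbx5 and Hand2 and in 72.1% of all. GATAA, the core of GATA factor sites, was in those of Tbx5 and Hand2 and in 26.5% of all, and AGGTGT, a T-box half-site, was in Gata6's and in 13.6% of all. TNAAGTG (an NKX2-5 site, 11.5% of all), TATAAA (14.2%) and the CArG box of serum response factor (1.64%) were in 0 of the 6. None of the matches in these 6 windows overlapped another. A match in these windows is a description and not a measured site.

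The T-box factor Tbx20, which keeps adult heart muscle working, separated the treatments fully. Without doxorubicin it was at 201.2, 197.4 and 101.4 CPM with the control mimic, 133.5, 133.5 and 201.2 CPM with miR-222, 151.5, 233.2 and 178.5 CPM with miR-455, and 143.4, 135.6 and 266.9 CPM with both. With the drug it was at 39.6, 35.0 and 42.9 CPM with the control mimic, 52.3, 51.6 and 40.2 CPM with miR-222, 43.6, 40.2 and 40.1 CPM with miR-455, and 50.8, 58.3 and 43.8 CPM with both. The highest library with the drug (58.3 CPM) was under the lowest without it (101.4 CPM). The fall was 4.26-fold with the control mimic (log2 -2.09 ± 0.29, edgeR adjusted p = 2.76e-05), and -1.70, -2.18 and -1.84 with miR-222, miR-455 and both. Its partner Tbx5, which acts with NKX2-5 and GATA4 and is mutated in Holt-Oram syndrome, was low in all groups. It went from 3.48 to 24.8 CPM without the drug to 1.31 to 4.39 CPM with it, and the lowest library without the drug was again of the control mimic. Its log2 fold changes were -2.23 ± 0.45, -2.66, -2.22 and -2.87 in the order control, miR-222, miR-455 and both.

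Myocardin (Myocd), the coactivator of smooth and cardiac muscle genes, had the second largest mean effect over the 4 conditions, -3.10 ± 0.25. It was at 143.5, 118.1 and 127.4 CPM with the control mimic without doxorubicin and 6.76, 18.6 and 10.8 CPM with it. With miR-222 the levels were 43.6, 44.6 and 87.2 CPM without and 10.6, 12.2 and 6.12 CPM with the drug. With miR-455 they were 107.1, 138.8 and 100.6 CPM without and 6.98, 8.83 and 10.0 CPM with it, and with both mimics 51.8, 51.7 and 112.2 CPM against 6.07, 22.6 and 6.62 CPM. No library with the drug reached the lowest without it, which was at 43.6 CPM. The log2 fold change was -3.42 ± 0.50 with the control mimic (10.7-fold lower, edgeR adjusted p = 4.84e-05), -2.60 (miR-222), -3.75 (miR-455) and -2.62 (both).

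Prox1 also separated fully, from 12.4 to 42.5 CPM without doxorubicin to 1.62 to 5.98 CPM with it. In the control mimic groups it went from 20.7, 23.8 and 12.4 CPM to 1.62, 5.98 and 3.79 CPM, a 4.92-fold fall (log2 -2.30 ± 0.41, edgeR adjusted p = 3.21e-04). The log2 fold changes with miR-222, miR-455 and both were -3.03, -2.87 and -2.95. Tbx20, Myocd and Prox1 were the 3 of 10 factors with every doxorubicin library below every library without it. Among all genes tested 2.80% had that order.

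Mef2c, the MEF2 gene needed for heart looping, fell in all 4 conditions. Its levels with the control mimic were 63.2, 45.5 and 26.5 CPM without doxorubicin and 24.8, 7.99 and 10.9 CPM with it. The groups did not overlap, though the highest library with the drug was close to the lowest without it. The log2 fold change was -1.64 ± 0.50 (edgeR adjusted p = 0.0184), and -2.24, -2.65 and -1.58 with miR-222, miR-455 and both. Leaving out replicate 2 or 3 of the control mimic with the drug, or replicate 1 without it, ended the call with the control mimic (edgeR adjusted p = 0.0894, 0.0769 and 0.0711). With both mimics the call was lost without replicate 1 or 3 of the drug group or any 1 library of the group without the drug (edgeR adjusted p from 0.0675 to 0.136). In those groups replicate 2 of both mimics with the drug stood apart, at 41.4 CPM against 7.22 and 14.5 CPM.

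Mef2a, a MEF2 gene prominent after birth, was the one factor not lower. Its levels with the control mimic were 276.2, 200.9 and 210.4 CPM without doxorubicin, and 363.3, 380.8 and 195.1 CPM with it. With miR-222 the levels were 66.2, 66.0 and 129.9 CPM without and 232.3, 165.2 and 110.2 CPM with the drug, and with miR-455 54.3, 138.7 and 69.9 CPM without and 108.4, 104.1 and 91.5 CPM with it. With both mimics they were 59.6, 54.4 and 228.4 CPM without and 96.0, 459.5 and 139.8 CPM with the drug. The treatments overlapped in every condition. The log2 fold changes were 0.45 ± 0.55 with the control mimic (95% interval -0.71 to 1.61), 0.95 (miR-222), 0.21 (miR-455) and 1.02 (both). The mean effect was 0.66 ± 0.28 (edgeR adjusted p = 0.0568). Over 31 alternatives the mean effect ran from 0.42 to 0.89 and passed the test in 10. It passed with DESeq2 in place of edgeR (0.70, DESeq2 adjusted p = 0.0255) and with DESeq2 size factors in edgeR (0.70, edgeR adjusted p = 0.0453). It also passed without the 4 low-gene libraries (0.63, edgeR adjusted p = 0.0127). Of the single libraries, leaving out replicate 3 of miR-222, 1 or 3 of both, or 3 of the control mimic with the drug, or 3 of miR-222, 2 of miR-455 or 3 of both without it, also gave the call (edgeR adjusted p from 0.0047 to 0.0476). Without replicate 3 of both mimics in the group without the drug, the change with both mimics was 2.04 (edgeR adjusted p = 0.0148). Over 14 alternatives that change ran from 0.05 to 2.04 and was called in 1.

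The 2 GATA factors, zinc finger proteins that bind GATA motifs in cardiac genes, fell less. Gata4 with the control mimic was at 76.7, 164.1 and 272.0 CPM without doxorubicin and 32.8, 81.3 and 101.3 CPM with it, and the groups overlapped. The log2 fold change was -1.25 ± 0.48 (edgeR adjusted p = 0.0575). Gata4 was at 198.9, 207.3 and 286.4 CPM with miR-222 and at 228.0, 331.3 and 239.3 CPM with miR-455 without the drug, and at 132.4, 151.2 and 155.8 CPM and 127.0, 131.4 and 136.2 CPM with it. Here the groups did not overlap, and the changes were -0.66 and -1.02. With both mimics Gata4 was at 203.4, 204.8 and 76.0 CPM without and 148.8, 38.9 and 82.6 CPM with the drug (-0.84, overlapping). The mean effect over the 4 conditions, -0.94 ± 0.24, did pass (edgeR adjusted p = 0.00263). Gata6 with the control mimic went from 34.9, 40.3 and 66.6 CPM to 7.47, 28.2 and 32.4 CPM, without overlap. Its change was -1.05 ± 0.41 (edgeR adjusted p = 0.0620), and -1.27, -1.01 and -1.49 with miR-222, miR-455 and both, of which the first and last passed. The Gata6 calls were lost without any 1 library of the 2 miR-222 groups (edgeR adjusted p from 0.0782 to 0.122), and, with both mimics, without replicates 2 or 3 with the drug or 1 or 2 without it (edgeR adjusted p from 0.0631 to 0.0761).

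Without those 4 low-gene libraries, Gata4 was called lower in all 4 conditions (log2 -1.33, -0.70, -1.07 and -0.83) and Gata6 also with the control mimic (-0.89) and miR-455 (-1.06). The counts of factors lower were then 9, 9, 8 and 8 in the order control, miR-222, miR-455 and both. Among all genes, those called lower also rose with miR-222, miR-455 and both, from 983, 1303 and 1035 to 2612, 3044 and 2481. That fit has a library fewer in each control mimic group and each group of both mimics. With the control mimic both GATA genes also passed without replicate 1 of the group without the drug (edgeR adjusted p = 0.0183 for Gata4 and 0.0469 for Gata6) or replicate 3 with it (0.0483 and 0.0391). DESeq2's test called both as well (DESeq2 adjusted p = 0.0348 and 0.0444). Fitting only the 2 groups compared added Gata4 with miR-222 and miR-455, and Gata6 with miR-455 (edgeR adjusted p = 0.0245, 0.00327 and 0.00979). Most alternatives did not add these calls. Of 14 with the control mimic, 6 called Gata4 (log2 -1.67 to -0.80 over all 14) and 5 called Gata6 (-1.40 to -0.64). Gata4 was called in 2, 2 and 1 of 14 with miR-222, miR-455 and both, and Gata6 in 2 of 14 with miR-455.

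Hand2, a helix-loop-helix factor of the ventricles, differed between mimic conditions in whether its fall passed. With the control mimic it went from 23.3, 28.0 and 21.7 CPM to 3.53, 11.2 and 8.02 CPM (log2 -1.67 ± 0.37, 3.19-fold lower, edgeR adjusted p = 0.00207). With miR-222 it went from 18.5, 18.005 and 38.8 CPM to 13.2, 10.0 and 11.02 CPM (-1.14 ± 0.36), a call lost without replicate 3 of the group without the drug (-0.69, edgeR adjusted p = 0.242) or any 1 library with it (edgeR adjusted p from 0.0726 to 0.126). With miR-455 it was at 16.0, 16.7 and 13.0 CPM without and 10.5, 11.02 and 9.68 CPM with the drug (-0.55 ± 0.36). Hand2 passed there when only these 2 groups were fitted (-0.59, edgeR adjusted p = 0.0291). With both mimics it was at 11.1, 13.8 and 10.7 CPM without and 10.4, 5.23 and 10.7 CPM with it (-0.43 ± 0.36), and the groups overlapped. The test of the difference itself did not pass. The drug effect with miR-455 minus that with the control mimic was 1.12 ± 0.51 (95% interval 0.06 to 2.17, edgeR adjusted p = 0.440), and with both mimics it was 1.24 ± 0.51 (0.18 to 2.30, edgeR adjusted p = 0.283).

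**Figure D2:**
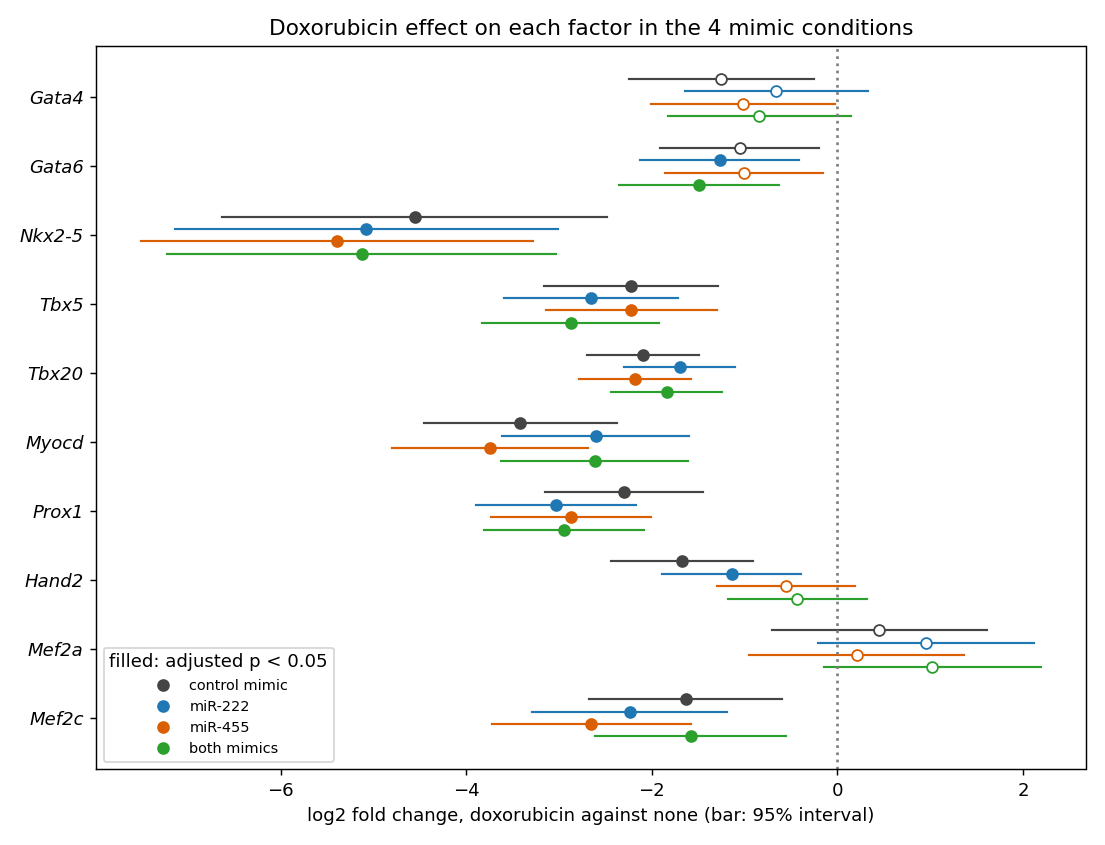
Log2 fold change of each factor with doxorubicin against none (horizontal axis) in the 4 mimic conditions. Points are estimates from edgeR, bars their 95% intervals, and filled points passed at an adjusted p under 0.05. Nkx2-5 has the lowest estimates, from -4.56 to -5.39, and all 4 estimates of Mef2a are above 0 with bars that cross it.

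Across the 8 groups, the order of the mean levels put the 4 doxorubicin groups below the 4 others for 9 of the factors. Mef2a did not follow that order, and the share of all genes that did was not counted. Among these 9, the highest drug group overlapped the lowest group without the drug, except for Tbx20, Myocd and Prox1. Within the drug groups and within the groups without it, neighbours in that order overlapped, with a pair of exceptions. For Gata6 the miR-222 group with the drug (30.4 to 31.5 CPM) was below the miR-455 group (32.3 to 43.9 CPM), and for Hand2 the miR-455 group without the drug (13.0 to 16.7 CPM) was below the control mimic (21.7 to 28.0 CPM). For Mef2a the lowest mean was that of miR-222 without the drug, 87.4 ± 36.8 CPM, and the highest that of the control mimic with it, 313 ± 103 CPM (SD, n = 3), with every neighbour overlapping.

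The mimics themselves changed no factor past the threshold. Without doxorubicin 0 of 10 were called for miR-222 (8.97% of all genes in either direction), for miR-455 (4.72%) or for both mimics (7.06%) against the control mimic. With doxorubicin the counts were again 0 for miR-222 (3.95%), miR-455 (2.50%) and both (5.55%). In these 6 comparisons edgeR gave an unadjusted p under 0.05 for 5, 1, 1, 1, 1 and 0 factors, and DESeq2 called 0, 0, 1, 0, 0 and 0. Such an unadjusted edgeR p was found for 3965, 3663, 3259, 2286, 1676 and 2865 of the 14303 genes tested. Libraries of the 2 groups did not overlap for 5, 2, 3, 3, 3 and 1 of the 10 factors in these comparisons, where 37.8%, 29.0%, 21.2%, 26.3%, 26.6% and 17.8% of all genes had that order. Without the drug, every miR-222 library had more Nkx2-5 than every control library (log2 1.89 ± 0.85, edgeR adjusted p = 0.157), and less Myocd (-1.15 ± 0.46, 0.113) and Mef2a (-1.39 ± 0.56, 0.120). Tbx5 (0.92 ± 0.42) and Prox1 (0.93 ± 0.38) were above the control libraries too. Mef2a was also below every control library with miR-455, both without the drug (-1.39 ± 0.56, edgeR adjusted p = 0.135) and with it (-1.63 ± 0.57, 0.185). Hand2 was below every control library with both mimics without the drug (-1.04 ± 0.36, edgeR adjusted p = 0.0840). So were Hand2 with miR-455 (-0.67 ± 0.36) and Myocd with both (-0.85 ± 0.46), while Prox1 was above the controls with both (0.79 ± 0.38). With the drug, Gata4 was above every control library with miR-222 (1.03 ± 0.48, edgeR adjusted p = 0.292) and with miR-455 (0.87 ± 0.47). So was Tbx5 with miR-222 (0.49 ± 0.44) and miR-455 (0.71 ± 0.44), Nkx2-5 with miR-222 (1.37 ± 0.93) and Tbx20 with both (0.38 ± 0.28). None of these 17 differences passed the test.

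These mimic comparisons rest on few libraries. Without replicate 3 of the control mimic without the drug, Nkx2-5 passed for miR-222 (3.04, edgeR adjusted p = 0.0488). Leaving out the 4 low-gene libraries takes a library from each control mimic group and each group of both mimics. In that fit 1455, 983 and 1901 of all genes were called lower without the drug, in the order miR-222, miR-455 and both. With the drug 673, 515 and 1018 were. Of the 10 factors, 2, 1 and 3 were called lower without the drug and 0, 1 and 1 with it. Among them were Mef2a with miR-222 (-1.27) and with miR-455 (-1.26 without and -1.52 with the drug), Myocd with miR-222 (-1.11) and Hand2 with both mimics (-1.05). DESeq2's test called Hand2 with both mimics without the drug (-1.04, DESeq2 adjusted p = 0.0285).

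For the difference of the drug effect from the control mimic, 0 of 10 factors were called with miR-222 (0.0489% of all genes), miR-455 (0%) and both (0.0559%). At an unadjusted p under 0.05 edgeR gave 0, 1 and 1 factors, the latter being Hand2. Of the 14303 genes tested, 1404, 1523 and 2002 had such a p. DESeq2 called 0 of 10 in each as well. The 95% intervals are wide, from -0.52 to 1.59 for Hand2 with miR-222 and from -3.13 to 2.09 for Nkx2-5 with it.

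Between libraries of one treatment, Gata4, Gata6 and Nkx2-5 moved together, while the 10 factors as a set did not. Here the close libraries were summed, which leaves 9 libraries without doxorubicin and 10 with it, drawn from all 4 mimic conditions. Of 90 relations between log2 CPM values, 45 for each treatment, 3 passed in each treatment on Pearson's r. All were positive, and they were the same 3 pairs of Gata4, Gata6 and Nkx2-5. Over the 12 unsummed libraries without the drug, 21 of 45 pairs were positive (median r -0.04, range -0.84 to 0.94). Over the 12 with it, 25 of 45 were (median r 0.13, range -0.83 to 0.92). Without the drug, r was 0.90 for Gata4 and Gata6, 0.96 for Gata4 and Nkx2-5, and 0.93 for Gata6 and Nkx2-5 (exact permutation, two-sided, raw p = 2.78e-04, 8.60e-04 and 2.78e-04, adjusted p = 0.00835, 0.0155 and 0.00835). Spearman's rho was 0.90, 0.83 and 0.92 (raw p = 0.00203, 0.00827 and 0.00131, adjusted permutation p = 0.0456, 0.149 and 0.0394). Leaving out the 2 libraries farthest from the median of the first gene left r at 0.90, 0.74 and 0.91.

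With the drug, the same pairs gave r of 0.93, 0.87 and 0.89 (permutation test with 100000 resamples, raw p = 5.40e-04, 2.70e-04 and 0.00183, adjusted p = 0.01215, 0.00835 and 0.02745) and rho of 0.64, 0.89 and 0.50 (raw permutation p = 0.0538, 0.00115 and 0.144, adjusted p = 0.323, 0.0394 and 0.443). Without the 2 farthest libraries r fell to 0.62, 0.71 and 0.56, so these relations lean on those libraries. On ranks, Myocd and Prox1 were opposed without the drug (rho -0.92, adjusted permutation p = 0.0394), where r was -0.83 (adjusted permutation p = 0.0570) and -0.62 without the 2 farthest libraries. With the drug the same pair had the opposite sign (r = 0.56, rho = 0.64, adjusted permutation p = 0.268 and 0.323), and deviations from group means over the 24 libraries gave r = 0.22. Libraries with few detected genes lay at one end of these relations. Replicate 1 of the control mimic and replicate 3 of both mimics, without the drug, held the 2 lowest Nkx2-5 levels (4.86 and 5.63 CPM) and the 2 lowest Gata4 levels (76.7 and 76.0 CPM) of the 12, and were among the highest for Mef2a (276.2 and 228.4 CPM). With the drug, replicate 1 of the control mimic and replicate 2 of both mimics held the lowest Gata4 (32.8 and 38.9 CPM) and Nkx2-5 (0 and 0.684 CPM). Mitochondrial transcripts took 20.3%, 24.9%, 38.2% and 21.3% of the counts in these 4 libraries, and the part of this share in the relations was not tested.

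**Figure D3:**
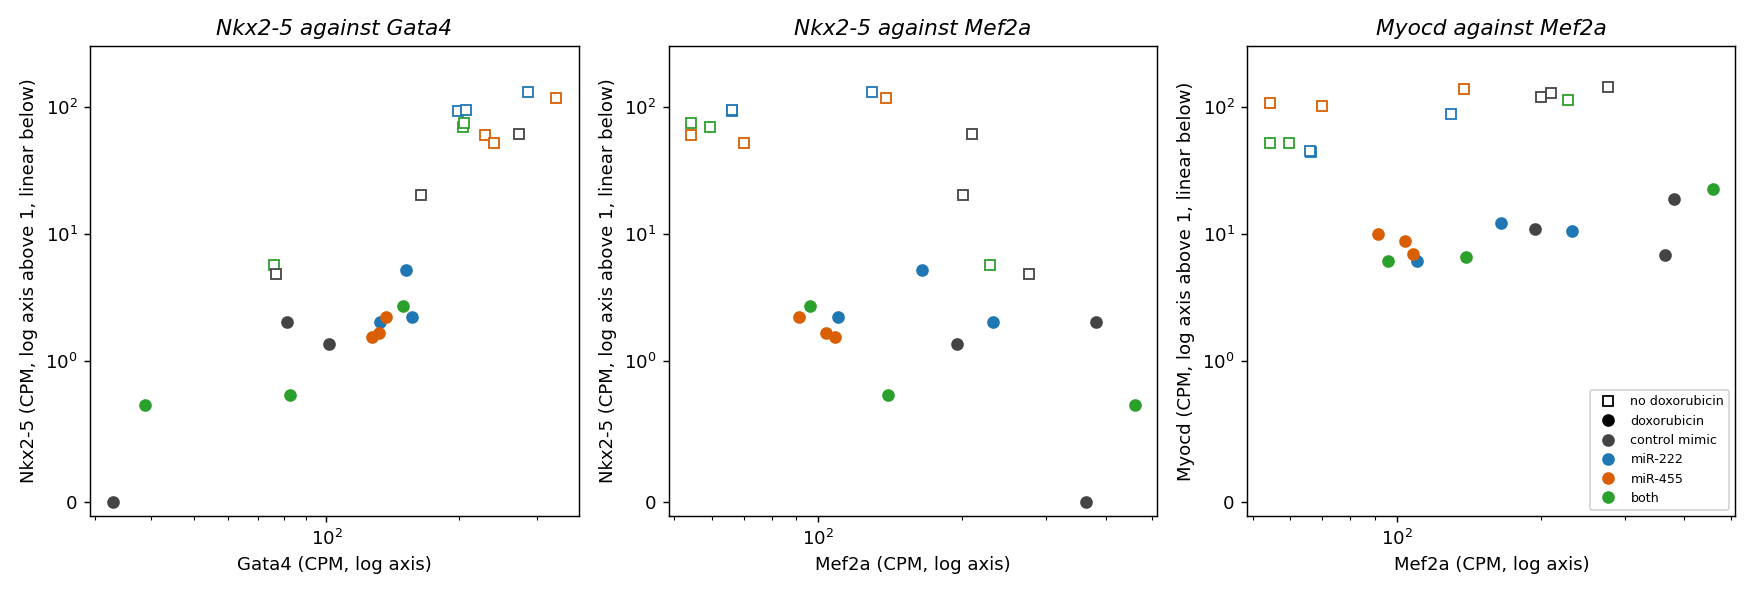
Nkx2-5 against Gata4, Nkx2-5 against Mef2a and Myocd against Mef2a in the 24 libraries (CPM; horizontal axes logarithmic, vertical axes logarithmic above 1 and linear below). Squares are libraries without and circles with doxorubicin, coloured by mimic. Nkx2-5 rises with Gata4 inside each treatment, while the libraries with the least Nkx2-5 without the drug (4.86 and 5.63 CPM) are among those with the most Mef2a.

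By the correlation of log2 CPM over the 24 libraries, which holds the drug difference, the nearest other factor was Gata6 for Gata4 (r = 0.92), Nkx2-5 and Hand2, Nkx2-5 for Gata6, Tbx20 for Tbx5, Myocd, Prox1 and Mef2c, and Myocd for Tbx20 (r = 0.93). For Mef2a the highest was Myocd, at r = -0.11. Among 10050 genes outside the 10, those most like the mean profile of the factors were Lpar3 (r = 0.98), Gata5 (0.96), Depp1 (0.96), Sufu (0.96) and A4galt (0.95). Gata5 is another cardiac GATA gene, Lpar3 a lysophosphatidic acid receptor and Sufu an inhibitor of Hedgehog signalling.

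Among cofactors and repressors of these factors, 1 to 5 were called lower in each condition. Of 22 listed, 19 were tested, and with the control mimic 5 were lower and 0 higher with doxorubicin (12.3% of all genes lower, median -0.48 against 0.02 for all genes). With miR-222 and with both mimics 1 was lower in each (6.87% and 7.24% of all genes), and with miR-455 5 (9.11%). In the mean effect 10 were lower (24.3%). The medians with miR-222, miR-455 and both were -0.40, -0.47 and -0.54. For the difference of the drug effect from the control mimic, 0 of 19 were called in each (0.0489%, 0% and 0.0559% of all genes). The 5 with the control mimic were Hdac9, a deacetylase that restrains MEF2 (log2 -3.74 ± 0.55, edgeR adjusted p = 5.08e-05), Zfpm2, the GATA4 partner FOG2 (-2.28 ± 0.52), Tead1, the YAP partner (-1.17 ± 0.32), Yap1 itself (-0.83 ± 0.25), and Ankrd1, a muscle repeat protein that responds to stretch (-4.66 ± 1.33). Srf, the partner of myocardin, had -1.46 ± 0.56 (edgeR adjusted p = 0.0584).

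Of 30 other cardiac transcription factors 29 were tested, and 8 were lower and 1 higher with the control mimic (12.3% and 15.2% of all genes, median -0.90). With miR-222, miR-455 and both, 8, 9 and 11 were lower (6.87%, 9.11% and 7.24% of all genes). In each 1 was higher (7.76%, 9.02% and 7.85%). In the mean effect 5 were higher and 15 lower (23.8% and 24.3% of all genes). With the control mimic, Gata5 went from 16.1 to 0.372 CPM (log2 -5.28 ± 0.74, edgeR adjusted p = 3.07e-05). Esrrg, a nuclear receptor of oxidative metabolism, went from 86.4 to 3.88 CPM (-4.46 ± 0.77), and Casz1, a zinc finger factor of heart development, from 43.2 to 8.38 CPM (-2.36 ± 0.44). Foxp1 changed by -1.53 ± 0.38. The one gene called higher with the control mimic was Tbx1, the T-box factor of the outflow tract. It had 0 counts in the control group and 3.09 ± 2.73 CPM with the drug (0.933 to 6.16 CPM). Against the 3 counts that a group at 0 allows (0.0422 CPM), the mean with the drug was at least 73.1-fold higher. That bound does not cover the spread between the libraries with the drug.

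Target genes were called in both directions. Of 20 genes known as targets of GATA4, NKX2-5 or TBX5, 4 were higher and 4 lower with the control mimic (15.2% and 12.3% of all genes, median -0.13). More were lower than higher in the other conditions: 3 higher and 6 lower with miR-222 (median -0.47), 1 and 8 with miR-455 (-0.94), and 3 and 6 with both (-0.20). Of all genes 7.76%, 9.02% and 7.85% were higher there and 6.87%, 9.11% and 7.24% lower. In the mean effect 5 were higher and 10 lower (23.8% and 24.3% of all genes). Nppa, the atrial natriuretic peptide gene and a classic joint target, rose by 3.17 ± 0.51 (edgeR adjusted p = 1.33e-04) and Tnnt2 by 1.34 ± 0.27. Chrm2, the M2 muscarinic receptor, changed by -4.33 ± 0.50 and Slc8a1, the sodium-calcium exchanger, by -2.81 ± 0.48. Of 15 myocardin and serum response factor targets 2 were higher and 3 lower with the control mimic (median -0.09), and 4 and 5 in the mean effect. Cnn1 (calponin) and Tpm2 (beta tropomyosin) rose by 1.90 ± 0.33 and 1.49 ± 0.29, and Mylk (a myosin light chain kinase) and Lmod1 (leiomodin) changed by -1.25 ± 0.27 and -3.30 ± 0.84. Of 13 MEF2 targets 5 were higher and 4 lower with the control mimic (median -0.21), and 5 and 6 in the mean effect. Myl2, the ventricular light chain, and Casq2, calsequestrin, rose by 2.08 ± 0.22 and 1.81 ± 0.26, while Xirp1, a Xin repeat protein, changed by -7.01 ± 0.74 and Ppargc1a, a mitochondrial coactivator, by -3.31 ± 0.47. Myl2 and Tnnt2 are also among the cardiomyocyte markers, where Myl3 (2.07 ± 0.40) and Tnnc1 (1.07 ± 0.23) rose as well.

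**Figure D4:**
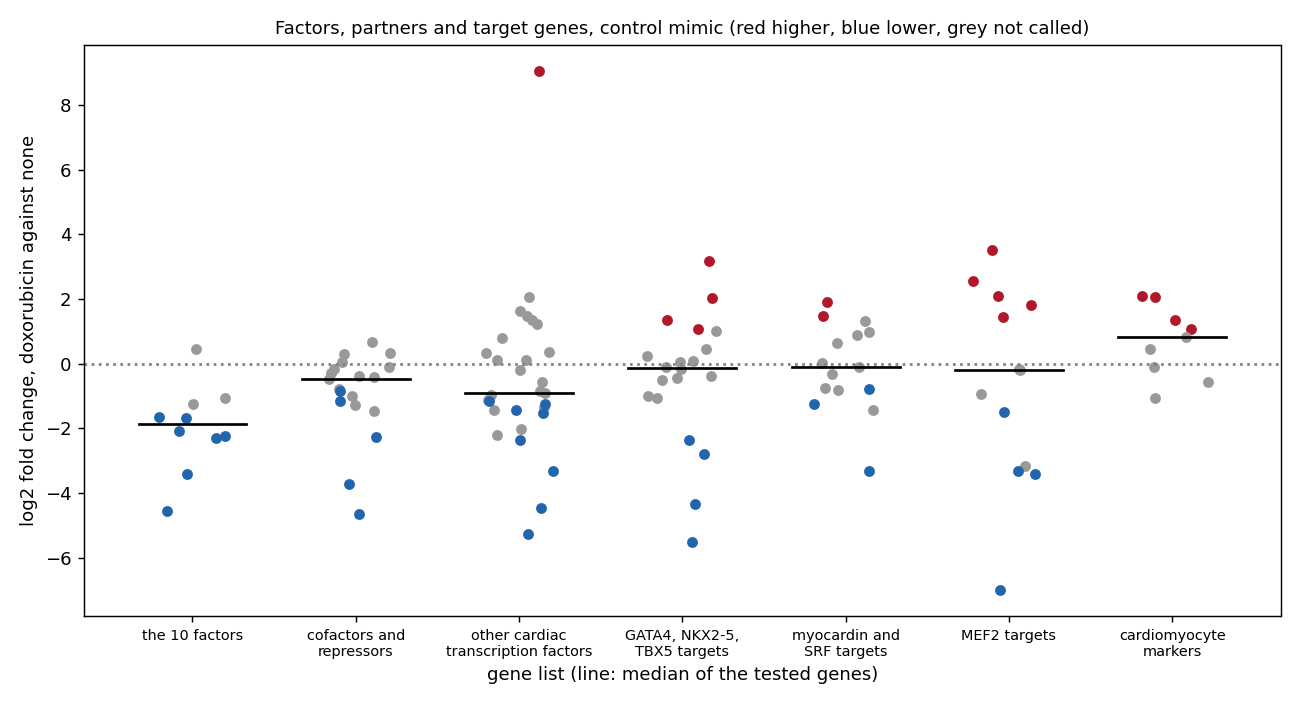
Log2 fold change with doxorubicin against none, control mimic (vertical axis), for each tested gene of 7 lists, red where called higher, blue where called lower and grey where not called. Lines are medians of the tested genes, -1.88 for the 10 factors and between -0.90 and 0.84 for the other lists. Tbx1, the highest point, had 0 counts in the control group, so its fitted value is no measure of size.

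Markers of the remaining cell types had 1 to 3 calls a list with the control mimic, where 27.5% of all genes were called in either direction. Among smooth muscle and pericyte markers 2 of 9 tested were higher and 1 lower, among endothelial and endocardial markers 0 and 1 of 8, and among lymphatic markers 1 and 0 of 4. For epicardial markers the counts were 1 and 0 of 6, and for macrophage and leukocyte markers 1 and 0 of 6. In the control mimic groups the lymphatic list summed to 70.4 to 116 CPM without and 106 to 158 CPM with the drug. Prox1, the defining factor of lymphatic endothelium, was lower there. Over the 24 libraries Pdpn had the highest median of that list (64.0 CPM), while Lyve1, Ccl21 and Mmrn1 never passed 1.80 CPM. What the sum says of lymphatic cells was not tested.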

How the data were processed

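Gene-level expected counts, estimated per gene and not whole for 7.35% of values, are the authors' deposited values, and they were rounded to whole counts here. Per the submitters' processing notes Salmon, DESeq2 and the rat build Rnor_6.0 were used, with tool versions not given in the sources used here. In the labels the deposited table is called filtered, with no filter stated.

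The analysis ran in edgeR 4.0.16 under R 4.3.3, with a low-count filter (filterByExpr over the groups), TMM scaling, 1 means model of 8 groups over 24 libraries, quasi-likelihood F test, and Benjamini-Hochberg adjustment over all 14303 genes tested in each comparison. The standard error is the log2 fold change divided by the square root of F, and intervals use the t distribution on the fit's degrees of freedom. Log2 CPM values had a prior count of 2. The script was tested on simulated data. Members and lists were chosen with earlier results of these data known. The text names all 10 members, up to 4 genes per list with the smallest p for doxorubicin with the control mimic, and the 5 genes most like the members. Srf, Yap1, Tbx1 and the marker genes given by level, outside that rule, were named after their values were seen. Likeness was searched among genes with a mean of at least 5 CPM. Alternatives were DESeq2 1.42.0, other scaling and filters, only the groups compared, a replicate block, and libraries left out. Summing close libraries (chi-square per degree of freedom under 10), with its cutoff, was chosen after seeing the data. Floors of 3 counts cover counting error only. Sequences are RefSeq's on GRCr8, not the files' build.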

Additional observations from a re-analysis of the deposited data

How the results depend on the processing

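In all 31 alternatives, 9 factors kept a called, lower mean doxorubicin effect over the 4 conditions. The count of factors lower in the 4 drug comparisons moved by over 1.5 times in 4 cases: 3 with the control mimic and 0 with both when only the groups compared were fitted, and 5 with miR-222 and 0 with miR-455 when close libraries were summed, where miR-455 with the drug becomes 1 library assumed to vary like the others. Without the 4 low-gene libraries, the mimic counts became 2, 1 and 3 without and 1 (miR-455) and 1 (both) with the drug, and DESeq2 gave 1 for both mimics without it. Leaving out 1 library gave 0 to 1 for miR-222 and for both mimics without the drug. Mef2a with miR-455 turned to -0.0247 with close libraries summed and ran from -0.0737 to 0.652 with 1 library left out. For all 50 single-factor drug effects, 840 of the values under alternatives kept their direction and call, 48 lost and 30 gained it, and 2 turned. The causes were not tested.

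Of 84 same-number correlations of deviations from group means, 16 were over 0.1 (range -0.58 to 0.45). Different-number pairs were not compared, so these values cannot decide whether replicate numbers pair the libraries. The replicate block gave 6 factors with miR-222, where Gata6 (-1.26, edgeR adjusted p = 0.0598) and Hand2 (-1.11, 0.0618) were not called, and changed no other factor's drug call. 

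The counts of all genes called depended more on the setting, and are given in the order miR-222, miR-455 and both mimics. For the drug effect with the control mimic the count was 3936, and 1437 with only the groups compared, 2607 with close libraries summed. With the mimics it was 2093, 2593 and 2158, and 4785, 5419 and 5 with only the groups compared, 4906, 5545 and 4757 without the 4 libraries, 556, 49 and 570 with close libraries summed. For the mimics without the drug it was 1283, 675 and 1010, and 485, 2 and 0 with only the groups compared, 2832, 1994 and 3714 without the 4 libraries, 2376, 1918 and 1887 with DESeq2, 48, 2 and 54 with close libraries summed, and 377 for miR-455 with the replicate block. For the mimics with the drug it was 565, 358 and 794, and 76, 144 and 2 with only the groups compared, 1211, 727 and 1873 without the 4 libraries, 1047, 654 and 1532 with DESeq2, and 185, 0 and 273 with close libraries summed. For the difference of the drug effect it was 7, 0 and 8, and 148, 63 and 1589 without the 4 libraries, and 205, 135 and 371 with DESeq2. There miR-222 gave 0 with DESeq2 size factors, with the filter of 1 CPM, with the replicate block, without mitochondrial genes and with close libraries summed, and 1 with only the groups compared. Both mimics gave 13 with that filter and 0 with no filter, the block, only the groups compared and close libraries summed. Leaving out 1 library gave 2892 to 4297 for the drug with the control mimic and 1187 to 1742, 1542 to 2584 and 1330 to 2914 with the mimics. For the mimics it gave 300 to 1644, 16 to 1987 and 267 to 2718 without the drug, 263 to 532, 145 to 320 and 463 to 1180 with it, and 0 to 13, 0 to 56 and 0 to 894 for the difference. With 3 libraries a group, Tbx5, Nkx2-5 and Prox1 with the drug rest on low CPM values.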
